A study of Mus musculus with 18 samples.

Results

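The 10 genes described here encode the enzymes that make prostaglandin E2 (PGE2) and prostaglandin D2 (PGD2) and the 4 receptors for PGE2. They were chosen by name: *Ptgs1* and *Ptgs2* (cyclooxygenases), *Ptges*, *Ptges2* and *Ptges3* (PGE synthases), *Ptgds* (lipocalin-type PGD synthase), and *Ptger1*, *Ptger2*, *Ptger3* and *Ptger4* (the receptors EP1 to EP4). They are 10 of the 55573 genes counted, each was matched by a single Ensembl gene ID, and all 10 had enough counts to be tested in every comparison. RNA-Seq had been performed on spinal dorsal horn tissue (DHSC) of the injected side from C57BL/6J mice aged 8 to 12 weeks, 2 h after 2% formalin was injected in the hind paw at 8 µl per 20 g of body weight. The 18 libraries came from 6 males, 6 F1/proestrus females (short interphase between the phases of pain behavior) and 6 F2/metestrus females (long interphase). All mice had received formalin and no uninjected group was analysed here, so the values are levels after formalin and not responses to it. Libraries were made from bulk dissected tissue, in which fewer cells of a type and less RNA per cell cannot be told apart.

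Prostaglandins are made from arachidonic acid, which phospholipases release from membranes. The cyclooxygenases convert it to PGH2, and terminal synthases then turn PGH2 into PGE2, PGD2 and the other prostanoids. In the dorsal horn PGE2 is known as a mediator of inflammatory pain that acts on sensory terminals and on spinal neurons. *Ptgs2* is known as the inducible cyclooxygenase, whereas *Ptgs1* is expressed constitutively in many tissues.

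The promoters of the cyclooxygenases are shown because *Ptgs1* was steady and *Ptgs2* scarce and variable in these samples, and because their motif matches differed. A link between the motifs and the levels was not tested. RefSeq (GRCm38.p6) had a promoter for 9 of the 10 genes, all but *Ptger1*. The first pair of sequences gives the 250 bases before the annotated start, on the plus strand, at chr2:36230176-36230425 for *Ptgs1* and chr1:150099781-150100030 for *Ptgs2*. The third sequence is a 30-base site of *Ptgs2* that lies past the annotated start, at chr1:150100033-150100062. Capitals mark matches to the motifs searched.
Ptgs1: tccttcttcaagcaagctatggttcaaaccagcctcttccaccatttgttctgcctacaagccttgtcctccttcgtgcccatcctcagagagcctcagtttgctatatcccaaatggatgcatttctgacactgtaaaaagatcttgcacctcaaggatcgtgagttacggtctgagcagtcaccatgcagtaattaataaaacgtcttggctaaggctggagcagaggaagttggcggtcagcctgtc
Ptgs2: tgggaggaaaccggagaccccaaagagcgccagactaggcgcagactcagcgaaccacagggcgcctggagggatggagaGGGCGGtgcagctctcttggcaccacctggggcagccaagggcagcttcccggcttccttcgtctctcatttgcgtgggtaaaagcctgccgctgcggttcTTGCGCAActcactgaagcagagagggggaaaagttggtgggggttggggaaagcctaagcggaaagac
Ptgs2 site: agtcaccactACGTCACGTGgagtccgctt
A set of 5 motifs was searched on both strands in the 300 bases of each RefSeq promoter (250 before and 50 after the start): a CRE core (TGACGT), an E-box (CACGTG), a C/EBP palindrome (TTGCGCAA), a TATA box (TATAAA) and an Sp1 box (GGGCGG). *Ptgs2* held 4 of them. The C/EBP palindrome, at 69 to 62 bases before the start, occurred in 0.183% of 32851 promoters, and *Ptgs2* was the only one of the 9 that held it. The CRE core of *Ptgs2*, read on the minus strand, shared 2 bases with its E-box, and the CRE core and the E-box occurred in 7.51% and 7.15% of all promoters. The Sp1 box occurred in 35.7% of promoters and in 5 of the 9. No promoter of the 9 held the TATA letters, which occurred in 13.6% of promoters, and *Ptgs1* held none of the 5 motifs. GC made up 61.6% of the 250 bases of *Ptgs2* and 48.0% of those of *Ptgs1*.

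Levels were compared between genes as RPKM, which are counts per kilobase of exon, scaled to a common library total after TMM normalization. The length joined all annotated exons of a gene, so folds between genes are approximate. *Ptgds* stood far above the other genes, with 557 ± 156 RPKM (mean ± SD, n = 18). The PGE synthases *Ptges3* (13.8 ± 2.89) and *Ptges2* (12.4 ± 0.847) followed, and their ranges over the samples overlapped. *Ptgs1* had 4.79 ± 0.394 RPKM and *Ptger1* 4.36 ± 0.448, again with overlapping ranges. *Ptger4* (1.76 ± 0.116), *Ptges* (1.53 ± 0.252) and *Ptger3* (1.40 ± 0.358) formed an overlapping trio, and *Ptger2* (0.392 ± 0.0594) and *Ptgs2* (0.301 ± 0.0830) were lowest and overlapped each other. Between these 5 sets of genes the ranges over the 18 samples did not overlap. *Ptgs1* exceeded *Ptgs2* in every sample, by 17.0-fold per kilobase on average (SD 4.68, range 8.66 to 28.3). *Ptges2* exceeded *Ptges*, the synthase known to be induced in inflammation, by 8.36-fold (SD 1.53), and *Ptger4* exceeded *Ptger2*, the other receptor that couples to Gs, by 4.58-fold (SD 0.726).

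The steadiness of the genes differed as well. The coefficient of variation of CPM over the 18 samples was 6.58% for *Ptger4*, 6.82% for *Ptges2* and 8.23% for *Ptgs1*. It was 28.0% for *Ptgds*, 27.6% for *Ptgs2* and 25.6% for *Ptger3*. Without F1/proestrus sample 5 it was 13.8% for *Ptger3*, below the 21.7% of *Ptges3*, and 28.4% and 27.3% for *Ptgds* and *Ptgs2*. CPM are counts scaled to a common library total after TMM normalization, and they were used for comparisons between samples. *Ptgs2*, the scarcest gene, still had 60 to 272 counts per sample.

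**Figure D1:**
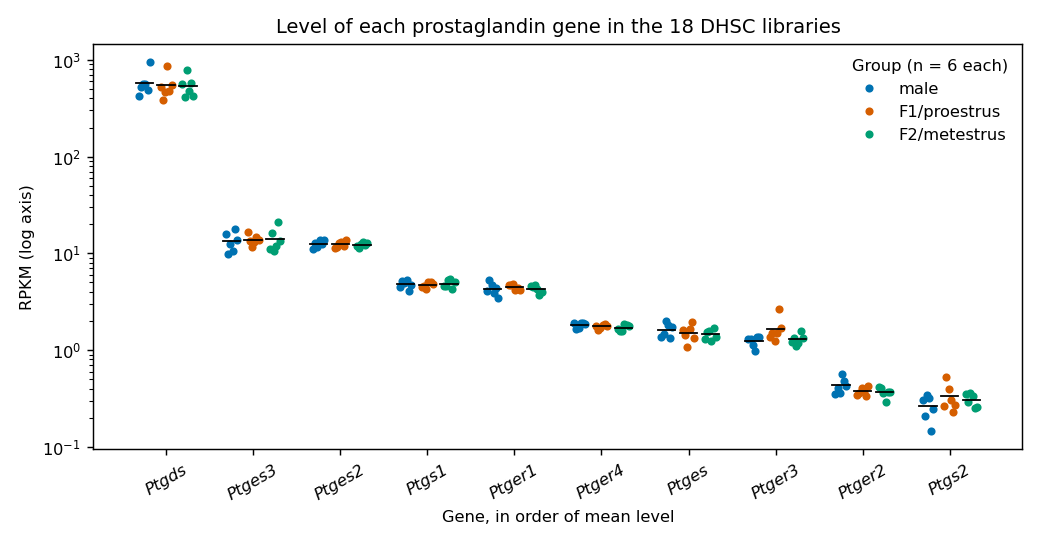
RPKM (log axis) of the 10 genes in each of the 18 libraries, in order of mean level; points are samples, coloured by group, and bars are group means (n = 6). *Ptgds* lies at 557 RPKM on average and *Ptgs2* at 0.301, and the 3 groups overlap for every gene.

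The libraries held 73590509 to 125724156 counts, and 3 counts corresponded to 0.0240 to 0.0407 CPM, a floor that covers counting error only. *Xist* and *Ddx3y* fitted the labelled sex in all 18 libraries. The 10 dorsal horn neuron markers summed to 743 to 881 CPM. A list of 10 dorsal root ganglion (DRG) neuron markers summed to 37.7 to 113 CPM in 17 libraries and to 828 CPM in F1/proestrus sample 5, which stood apart. The 9 neutrophil markers summed to 5.48 to 32.3 CPM in males and 1.88 to 11.2 CPM in females. Library numbers separated replicates 1 to 3 from replicates 4 to 6 of every group.

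The first comparison asked whether the 10 genes differed between males and females. With edgeR's quasi-likelihood test over 24862 genes and a false discovery rate (FDR) of 5%, 0 of the 10 differed, beside 0.197% of all genes tested (49 genes). At an unadjusted p under 0.05 edgeR gave 1 of the 10, *Ptger2*, and DESeq2 and limma voom gave 0, beside 9.72% of all genes by edgeR. The median log2 fold change (males minus females) of the 10 genes was 0.015, against -0.0013 over all genes tested. No gene of the 10 was without overlap between the sexes, as 0.125% of all genes were. For 9 of the 10 genes the 95% interval of the difference lay within 1.5-fold in either direction, and for all 10 it lay within 2-fold. In simulated data this test recovered 63.8% of genes changed by 1.5-fold and 85.3% of those changed by 2-fold between the sexes. These simulated data held no difference between replicates 1 to 3 and replicates 4 to 6, unlike the real data. The shares can therefore be too high for the real data.

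*Ptgs1* had 16.0 to 20.7 CPM in males (median 18.7), 16.5 to 19.7 in F1/proestrus (median 18.3) and 16.7 to 21.1 in F2/metestrus (median 18.6). The 3 ranges nearly coincided, and males and females differed by a log2 fold change of 0.0030 (SE 0.063, 95% interval -0.13 to 0.13, edgeR adjusted p = 0.991).

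*Ptgs2* had 0.668 to 1.59 CPM in males (median 1.27), 1.04 to 2.42 in F1/proestrus (median 1.32) and 1.17 to 1.63 in F2/metestrus (median 1.43). The lowest value was that of male 5 and the highest that of F1/proestrus 2, and the groups overlapped throughout. The log2 fold change between the sexes was -0.29 (SE 0.18, 95% interval -0.67 to 0.09, edgeR adjusted p = 0.603), and its interval reached a male level of 0.630 times the female level. It was -0.36 in replicates 1 to 3 alone and -0.22 in replicates 4 to 6 alone.

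The inducible PGE synthase *Ptges* had 5.24 to 7.89 CPM in males (median 6.24), 4.25 to 7.76 in F1/proestrus (median 5.94) and 4.85 to 6.65 in F2/metestrus (median 5.73). Its log2 fold change between the sexes was 0.13 (SE 0.11, edgeR adjusted p = 0.712). *Ptges2* (0.03, SE 0.05, 95% interval -0.08 to 0.14) had the narrowest interval of the 10. *Ptges3*, which encodes the Hsp90 cochaperone p23, had a log2 fold change of -0.06 (SE 0.14).

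*Ptgds*, the enzyme of PGD2 synthesis known from the meninges and oligodendrocytes, had 695 to 1553 CPM in males (median 896), 641 to 1425 in F1/proestrus (median 826) and 675 to 1311 in F2/metestrus (median 857). One sample stood well above the rest in each group, namely male 6, F1/proestrus 4 and F2/metestrus 3. The log2 fold change between the sexes was 0.10 (SE 0.17, 95% interval -0.24 to 0.45, edgeR adjusted p = 0.859).

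Among the receptors, *Ptger2* (EP2) had 1.84 to 2.92 CPM in males (median 2.16), 1.75 to 2.19 in F1/proestrus (median 1.91) and 1.52 to 2.16 in F2/metestrus (median 1.92). Males 4, 5 and 6 lay above every female, whereas males 1 to 3 lay within the female range. The log2 fold change was 0.21 (SE 0.10, edgeR adjusted p = 0.513). It was -0.05 in replicates 1 to 3 alone and 0.44 in replicates 4 to 6 alone. The difference between these values was 0.47 (SE 0.18), with an edgeR adjusted p of 0.964, and edgeR found 0 genes (0.0%) whose sex difference depended on the replicate set (1235 genes at an unadjusted p under 0.05).

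*Ptger3* (EP3, which couples to Gi) had 5.55 to 7.85 CPM in males (median 7.47), 7.12 to 15.1 in F1/proestrus (median 8.55) and 6.30 to 9.04 in F2/metestrus (median 7.22). The log2 fold change between the sexes was -0.25 (SE 0.14, edgeR adjusted p = 0.576), and -0.14 without F1/proestrus 5. *Ptger4* (EP4) had 10.9 to 12.6 CPM in males (median 12.4), 10.8 to 12.5 in F1/proestrus (median 11.8) and 10.4 to 12.4 in F2/metestrus (median 11.3). Its log2 fold change was 0.06 (SE 0.06, edgeR adjusted p = 0.729), and that of *Ptger1* (EP1) was -0.03 (SE 0.07, edgeR adjusted p = 0.906).

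**Figure D2:**
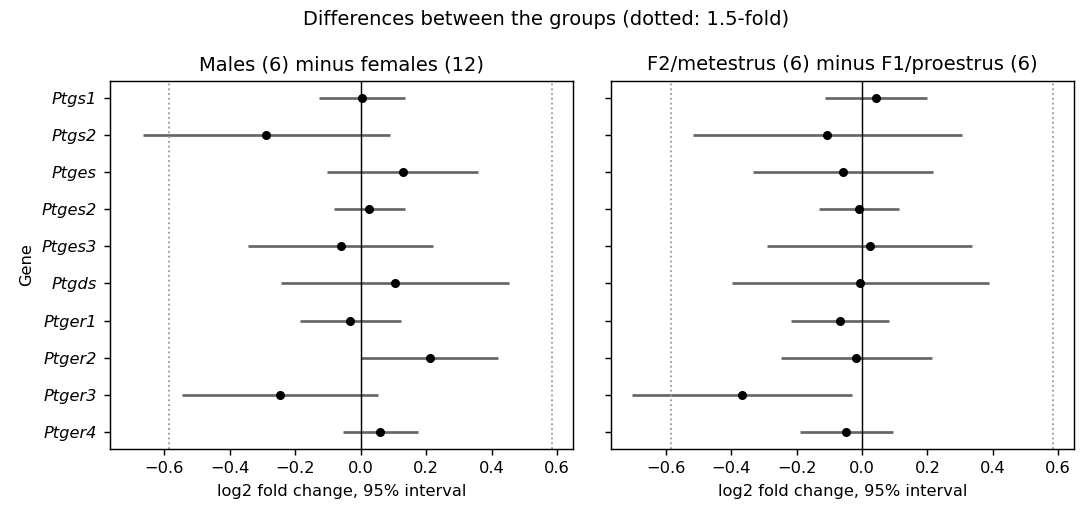
Log2 fold change of each gene (points) with its 95% interval (lines) from edgeR, between males and females (left) and between F2/metestrus and F1/proestrus (right); dotted lines mark 1.5-fold. Between the sexes 1 interval, that of *Ptgs2*, reaches past 1.5-fold, and between the female groups 1 does, that of *Ptger3*.

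The second comparison asked whether the female groups, which differed in behavior and estrous stage, differed in these genes. edgeR called 0 of the 10 genes and 0 of 24042 genes in all (0.0%), with 596 genes (2.48%) at an unadjusted p under 0.05. DESeq2 called 2 genes and limma voom 0, and both called 0 of the 10. For 9 of the 10 genes the 95% interval lay within 1.5-fold. The log2 fold change (F2/metestrus minus F1/proestrus) was 0.04 for *Ptgs1* (SE 0.07), -0.11 for *Ptgs2* (SE 0.19) and -0.06 for *Ptges* (SE 0.13). It was -0.0050 for *Ptgds* (SE 0.18), -0.02 for *Ptger2* (SE 0.11) and -0.05 for *Ptger4* (SE 0.07). In simulated data edgeR recovered 57.3% of genes changed by 1.5-fold and 87.0% of those changed by 2-fold between the female groups. Here too the simulated data held no difference between replicates 1 to 3 and replicates 4 to 6, so the shares can be too high.

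*Ptger3* had the largest value of this comparison among the 10, and it was the 1 gene of the 10 at an unadjusted p under 0.05. Its log2 fold change was -0.37 (SE 0.16, 95% interval -0.70 to -0.03, edgeR adjusted p = 1.0). F1/proestrus 5 had 15.1 CPM and the other F1/proestrus samples 7.12 to 9.72. Without that sample the log2 fold change was -0.18 (SE 0.10, edgeR adjusted p = 1.0).

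The same library stood apart in other prostanoid receptors. *Ptgdr* (the PGD2 receptor DP1) had 9.33 CPM in F1/proestrus 5 and 0.760 to 1.52 CPM in the other 17 libraries. *Ptgir*, the prostacyclin receptor, had 8.90 CPM there (1016 counts) and 0.0 to 0.351 CPM elsewhere (at most 39 counts). *Ptgfr*, the receptor of PGF2α, had 10.2 CPM there and 4.62 to 8.23 CPM elsewhere. In all, F1/proestrus 5 was the highest library for 3 of the 5 other prostanoid receptors and for 1 of the 10 genes. It was also the highest for all 10 DRG neuron markers, including *Scn10a*, a sodium channel of nociceptors, at 125 CPM (at most 0.153 elsewhere) and *Avil* at 132 CPM (at most 0.903 elsewhere). *Ptgs1*, *Ptgs2*, *Ptges*, *Ptger1*, *Ptger2* and *Ptger4* lay within the range of the other libraries in this sample. The part of DRG material in these receptor values was not tested.

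**Figure D3:**
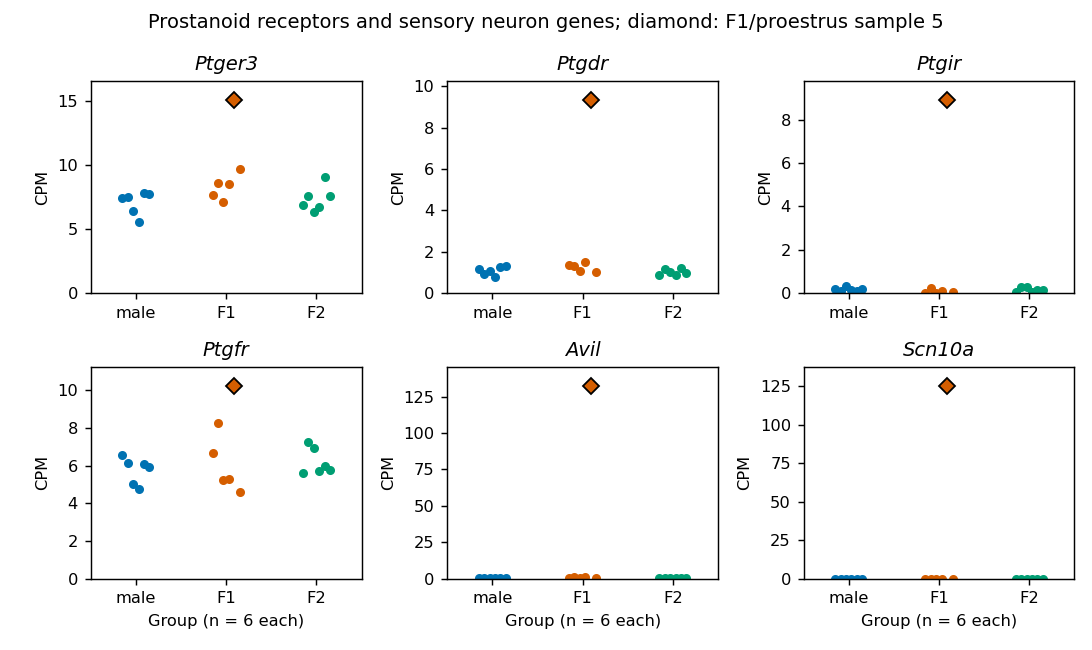
CPM of 4 prostanoid receptors and of the DRG neuron genes *Avil* and *Scn10a* in each library (6 per group); the diamond is F1/proestrus sample 5. That sample is the highest of 18 in every panel, with 15.1 CPM for *Ptger3*, 9.33 for *Ptgdr*, 8.90 for *Ptgir* and 10.2 for *Ptgfr*.

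Replicates 4 to 6 were compared with replicates 1 to 3 within groups, since every group was split between these replicate sets. The cause of the split is not given in the sources used here. edgeR called 2 of the 10 genes, beside 27.6% of 24038 genes tested. *Ptger1* was lower in replicates 4 to 6 (19.0 to 24.1 CPM, median 22.9) than in replicates 1 to 3 (22.1 to 28.7 CPM, median 25.6), with a log2 fold change of -0.23 (SE 0.05, edgeR adjusted p = 0.0026). *Ptges2* was higher (59.6 to 70.1 CPM, median 66.2, against 56.7 to 64.3 CPM, median 59.1), with a log2 fold change of 0.10 (SE 0.04, edgeR adjusted p = 0.0418). Both pairs of ranges overlapped, and 4.22% of all genes had no overlap between the sets. *Ptgs2* had 0.668 to 1.54 CPM in replicates 4 to 6 and 0.951 to 2.42 CPM in replicates 1 to 3, a log2 fold change of -0.38 (SE 0.15, edgeR adjusted p = 0.0696), beside -0.29 between the sexes. *Ptger4* missed the threshold at 0.11 (SE 0.04, edgeR adjusted p = 0.0585), but passed it with DESeq2 (adjusted p = 0.0067), with size factors in place of TMM (edgeR adjusted p = 0.0238) and with at least 10 counts in every sample (edgeR adjusted p = 0.0292). The call of *Ptges2* was lost when any 1 of 10 samples was left out (males 1, 3, 4 and 6, F1/proestrus 1, 2 and 4, and F2/metestrus 1, 2 and 4), with adjusted p-values of 0.0502 to 0.0706 by edgeR. *Ptger4* passed the threshold without any 1 of males 1, 2, 3, 5 and 6, F1/proestrus 1, 2, 3, 5 and 6 and F2/metestrus 2, 5 and 6 (edgeR adjusted p = 0.0098 to 0.0461), and *Ptgs2* passed it without male 2 (0.0453) or male 4 (0.0300). The call of *Ptger1* was kept whichever sample was left out.

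**Figure D4:**
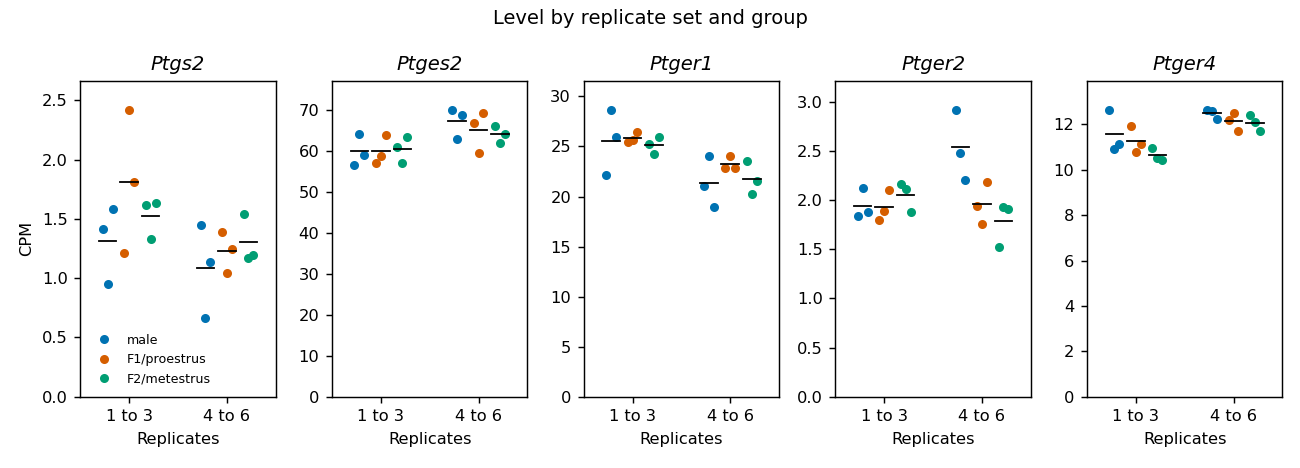
CPM of *Ptgs2*, *Ptges2*, *Ptger1*, *Ptger2* and *Ptger4* by replicate set and group; points are samples and bars are means of 3. *Ptger1* is lower and *Ptges2* higher in replicates 4 to 6, and for *Ptger2* the 3 males of replicates 4 to 6 (2.21 to 2.92 CPM) lie above the females of that set (1.52 to 2.19 CPM).

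The counts of some of the genes carry an uncertainty. Whether counting used the strand is not stated, so the level of *Ptger1* and its difference between the replicate sets are uncertain. The same limit holds for *Ptger4*, which shares 1015 exon bases (15.3%) with *Gm15937* on the opposite strand. *Ptger2* shares fewer (4.7% with *Gm17173* and 2.8% with *Gm49364*), as does *Ptgs1* (3.8% with *Gm43621*). The effect of these overlaps on the counts was not tested. *Ptges3* has a processed copy, *Ptges3-ps*, listed at 34.3 ± 4.51 CPM (SD, n = 18) beside 30.5 ± 6.41 CPM for *Ptges3*. Per kilobase the copy stood higher, at 71.5 ± 9.40 RPKM against 13.8 ± 2.89 RPKM for *Ptges3*. The pair had r = 0.71 over all samples and r = 0.89 and 0.86 within the replicate sets. Reads of such a pair can be split between its members in counting, so the level of *Ptges3* and its place among the genes are uncertain. These correlations are descriptions over the 18 samples of both replicate sets.

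**Figure D5:**
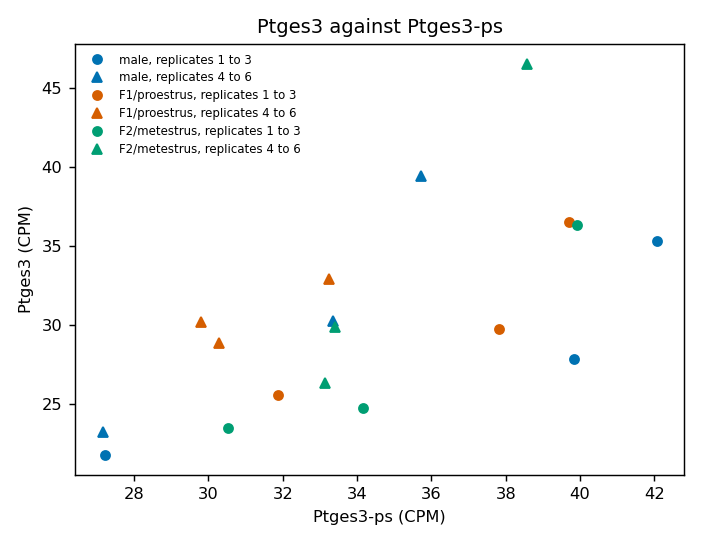
CPM of *Ptges3* against its processed copy *Ptges3-ps* in 18 libraries; circles are replicates 1 to 3, triangles replicates 4 to 6, and colours the groups. At a given level of *Ptges3-ps* the triangles mostly lie above the circles (r = 0.71 over all samples, 0.89 and 0.86 within the replicate sets).

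The remaining steps of the pathway were read from lists of genes. Of those tested, edgeR called 0 of 10 genes that release arachidonate, 0 of 5 other prostanoid synthases, 0 of 5 other prostanoid receptors, 0 of 8 genes of prostaglandin transport and inactivation and 0 of 17 genes of EP receptor signalling between the sexes. It also called 0 of 16 inducers and regulators of *Ptgs2* and 0 of 12 immediate early genes. At an unadjusted p under 0.05 there were 1, 1, 1, 0, 4, 2 and 1 genes of these lists, in that order. Over all genes tested edgeR gave 9.72% at that p and called 0.197%, so lists of these sizes would hold few or no calls at that share. DESeq2 called 0 genes of each of these lists too. The median log2 fold changes of the lists lay between -0.17 and 0.09, with -0.0013 over all genes. The lowest was that of the other prostanoid receptors, whose values include F1/proestrus 5, the highest library for 3 of the 5. Against F2/metestrus alone their median was 0.09. The highest was that of the immediate early genes, all 12 of which had positive values. Against F2/metestrus alone all 12 were positive, and against F1/proestrus alone 7 were positive and 5 negative. The smallest p among the phospholipases and lipases was that of *Pla2g2d*, a secreted phospholipase A2, with a log2 fold change of 0.46 (SE 0.12, edgeR adjusted p = 0.180). Among the receptors it was that of *Tbxa2r*, the thromboxane receptor, which had 2.85 to 6.24 CPM in males (median 4.93) and 2.29 to 4.73 CPM in females (median 3.15). The 2 ranges overlapped, and the log2 fold change was 0.55 (SE 0.15, edgeR adjusted p = 0.210). *Tbxa2r* had also the highest level per kilobase of the 5 other receptors, with 1.96 ± 0.585 RPKM (SD, n = 18). *Akr1b3*, an aldose reductase with PGF synthase activity, had 0.32 (SE 0.11, edgeR adjusted p = 0.336), *Cbr1* 0.11 (SE 0.06, edgeR adjusted p = 0.588) and *Adcy1*, an adenylyl cyclase, 0.23 (SE 0.08, edgeR adjusted p = 0.328). *Il1a* had 0.44 (SE 0.19, edgeR adjusted p = 0.453) and *Egr2*, which the Schwann cell list also holds, 0.40 (SE 0.13, edgeR adjusted p = 0.323).

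Marker lists of other cells gave a background for these values. Between the sexes 1 of 8 Schwann cell markers was called, *Ncmap*, at 0.67 (SE 0.11, edgeR adjusted p = 0.0065), and 6 of the 8 were at an unadjusted p under 0.05, with all 8 values positive and a median of 0.57. The Schwann cell list holds *Mbp*, which the oligodendrocyte list also holds. None of the 8 neutrophil, 10 microglia, 9 endothelium, 8 astrocyte, 10 oligodendrocyte, 12 leptomeninges and fibroblast or 6 red blood cell markers tested was called, with 8, 4, 1, 0, 0, 4 and 1 of them at an unadjusted p under 0.05. These counts, and those of the other marker lists, stand beside 0.197% of all genes called and 9.72% at an unadjusted p under 0.05 by edgeR. All 8 neutrophil markers had positive values, with a median of 1.28. Of the neuron markers tested, 0 of 9 DRG, 0 of 10 dorsal horn and 0 of 7 ventral horn motor neuron markers were called, with 5, 4 and 0 at an unadjusted p under 0.05. The DRG values depend on F1/proestrus 5, the highest library for all 10 DRG markers. Their median was -1.52 between males and all females. Against F2/metestrus alone it was -0.20, with 3 of 7 tested at an unadjusted p under 0.05 by edgeR. All 7 motor neuron markers had negative values, with a median of -0.56. The part of these cells in the values of the 10 genes was not tested.

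Between the female groups edgeR called 0 genes of any list, beside 0.0% of all genes tested. Between the replicate sets it called 5 of 10 arachidonate genes (*Mgll*, 0.27, and *Daglb*, 0.14, higher and *Pla2g4b*, -0.51, and *Dagla*, -0.31, lower among them). It called 2 of 5 other synthases, *Fam213b* (0.18) and *Akr1b3* (0.26), and 2 of 8 genes of transport and inactivation, *Cbr1* (0.19) and *Abcc4* (-0.25). Of the 17 signalling genes 9 were called, led by *Gnas* (0.19), *Arrb1* (-0.37), *Gnai2* (0.19) and *Adcy9* (-0.29). Of 14 inducers and regulators 4 were called, *Tnfrsf1a* (0.22), *Rela* (0.16), *Creb1* (-0.31) and *Elavl1* (-0.13), and of 12 immediate early genes 2, *Fosl2* (-0.39) and *Nr4a3* (-0.48). These counts stand beside the 27.6% of all genes called between the replicate sets. Markers of other cells moved between the sets too. Of 10 microglia markers 7 were called (6 higher and 1 lower, median 0.15), and of 9 endothelium markers 4 were called, all lower (median -0.22). There were 3 of 8 astrocyte, 2 of 10 oligodendrocyte, 2 of 8 Schwann cell, 3 of 10 dorsal horn and 1 of 7 DRG neuron markers called, and 0 of the leptomeninges and fibroblast, neutrophil, red blood cell and motor neuron markers. Their part in the values of *Ptgs2* and the other genes between the sets was not tested.

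The genes most like each enzyme over the 18 samples were listed by Pearson's r of log2 CPM among 17544 genes. *Ptgs2* was most like *Polk* (r = 0.85), *Fbln1* (0.79), *Msh6* (0.78), *Tnfaip3*, an inhibitor of NF-kB signalling (0.78), and *Abcb1a*, a transporter of the blood-brain barrier (0.77). Its r with the mean of the endothelium markers was 0.58 (0.57 and 0.48 within the replicate sets), and with the mean of the immediate early genes -0.04 (0.35 and -0.42 within the replicate sets). Among the genes most like *Ptges* were *Tnfsf13* (0.75), *Crispld2* (0.75), *Emp3* (0.75) and *Egr2* (0.73), and its r with the leptomeninges and fibroblast markers was 0.58 (0.70 and 0.50 within the replicate sets). *Ptgds* was most like *Aprt-ps* (0.87), *Polr1c* (0.84), *AC133650.1* (0.78), *Tmem120a* (0.77) and *Fbxo27* (0.75). Its r was 0.28 with the leptomeninges and fibroblast markers and 0.09 with the oligodendrocyte markers. *Ptgs1* was most like *Gm11769* (0.86), *Gm43621* (0.85), *Gm13181* (0.84), *Map2k7* (0.82) and *Gm29787* (0.82), and *Gm43621* overlaps it on the opposite strand over 148 exon bases. *Ptger4* was most like *Itgb3bp* (0.86), *Pfdn2* (0.85), *Pcbd2* (0.84), *Gm10705* (0.83) and *Mapre3* (0.83), and for *Mapre3* r was -0.21 within replicates 4 to 6. Among the 45 pairs of the 10 genes r ran from -0.64 (*Ptgs1* and *Ptges3*) to 0.54 (*Ptges2* and *Ptgds*), with a median of -0.08. These values are descriptions, and the replicate sets, which differed in many genes, are part of every r over the 18 samples.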

How the data were processed

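The authors deposited raw counts of reads on the exons of 55573 Ensembl genes in 18 libraries, without normalization. They had aligned the reads with Subread to mm10, keeping unique matches, and counted them with featureCounts. Subread 2.0.3 is named in the submitters' processing notes, whereas the methods give another version. The strand setting of the counting is not given in the sources used here. The labels describe SMART-Seq amplification with Nextera XT tagmentation, and the methods the TruSeq kit. The authors also deposited a table of their own DESeq2 comparison, from which gene symbols alone were read. Members and lists were chosen with earlier results of these data known.

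Counts were tested with edgeR 4.0.16 in R 4.3.3 (filterByExpr with a minimum count of 10 and a minimum total of 15, TMM, quasi-likelihood test, Benjamini-Hochberg adjustment over all genes tested, FDR of 5%). SE is the log2 fold change over the square root of F. DESeq2 1.42.0, which the methods name, and limma voom with sample quality weights (3.58.1) were alternatives. Males were compared with all 12 females, and the female groups with each other in a fit without the males. Replicates 4 to 6 and 1 to 3 were compared with group as a covariate. Tests were tested on simulated data. Exon lengths came from GENCODE vM21 (GRCm38), which held 55480 of the 55573 IDs, and promoters from RefSeq. Replicates are biological according to the methods, and no 2 libraries had identical counts. All 18 count columns were matched to samples by their labels.

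Named were the 10 genes, the called genes of each pathway list (at most 4 per list and comparison, smallest p first), where none was called the gene with the smallest p between the sexes and the one with the highest level per kilobase, and the 5 genes most like *Ptgs1*, *Ptgs2*, *Ptges*, *Ptgds* and *Ptger4*, except results that are not reported here. *Ptges3-ps* and the other receptors were chosen after their values were seen.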

Additional observations from a re-analysis of the deposited data

Results flagged for a closer look

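Each of the 10 genes and the 5 other prostanoid receptors was examined in each group for a sample whose gap to the rest was past Dixon's critical value. This held in 6 of 45 groups. A single group passes that value in about 1 in 20 cases by chance, but this rate cannot be set against the flags here. The 5 other receptors were chosen after their values were seen, and several of the flags come from F1/proestrus sample 5. *Ptgds* had 1553 CPM in male sample 6 (the other males 695 to 921) and 1425 CPM in F1/proestrus sample 4 (the others 641 to 899). In F1/proestrus sample 5, *Ptger3* had 15.1 CPM (the others 7.12 to 9.72), *Ptgir* 8.90 CPM (the others 0.0 to 0.240) and *Ptgdr* 9.33 CPM (the others 1.04 to 1.52). *Ptgdr2*, the second PGD2 receptor, had 0.418 CPM in F2/metestrus sample 6 (the others 0.269 to 0.320).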

How the results depend on the processing

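None of the 10 genes was called between the sexes or between the female groups by any alternative, including DESeq2, limma voom, size factors, other filters, each replicate set (1 to 3 or 4 to 6) alone and leaving out each sample. The number of genes called between the sexes was 49, and it was 167 with DESeq2, 31 with at least 10 counts in every sample, 134 with the library series as a covariate, 16 and 13 in replicates 1 to 3 and 4 to 6 alone, and 13 and 22 against F1/proestrus and F2/metestrus alone. Leaving out 1 sample gave 25 (without male 5) to 77 genes (without F1/proestrus 5), and 30 without male 4. DESeq2 called 2 genes between the female groups. Between the replicate sets 2 of the 10 genes were called, 1 with no filter on low counts, 3 with DESeq2, size factors or at least 10 counts in every sample (*Ptger4* added), and 1 to 4 when 1 sample was left out (4 without male 2, and 1 without F1/proestrus 4, F2/metestrus 1 or F2/metestrus 4).

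The replicate numbers were not taken to pair the samples, since not every pair of same-numbered samples deviated together. Deviations from the group means correlated between -0.11 and 0.53 over 18 pairs (11 over 0.1), and between -0.26 and 0.31 (5 over 0.1) once the difference between the replicate sets was taken out. With the number as a block, 148 genes were called between the sexes and 0 between the female groups, with 0 of the 10 in both. Uncalled values of single genes changed sign in 8 of 120 values between the sexes and 13 of 100 between the female groups, and in 17 of 180 and 15 of 120 when 1 sample was left out. The causes of these shifts were not tested. Depth did not limit detection, with at least 60 counts per sample for each gene. The number of samples and the single sampling time, with no uninjected mice, limit what the values show.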

Other observations

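*Ptges3*, chosen after its values were seen, was most like *Nudt10* (r = 0.96), *Dnajb6* (0.96), *Arl1* (0.96), *Ube2d2a* (0.96) and *Etfrf1* (0.96) over the 18 samples, and r was at least 0.95 within each replicate set for these 5 genes. For its processed copy *Ptges3-ps* r was 0.71.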
